A study of Mus musculus with 3 samples.

Results

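Haemoglobin and red cell genes were followed in leg muscle of old and young mice. The group holds 8 genes of the 42258 in the deposited tables, chosen by symbol: the adult alpha globins Hba-a1 and Hba-a2, the adult beta globins Hbb-bs and Hbb-bt, the erythroid haem enzyme gene Alas2, the red cell anion exchanger gene Slc4a1, the bisphosphoglycerate mutase gene Bpgm and the ferrochelatase gene Fech. RNA came from gastrocnemius and plantaris of male mice. The aged EPA library pools 6 mice of strain C57BL/6J, aged 87 weeks, whose feed held 1 wt% EPA (eicosapentaenoic acid, a fatty acid of fish oil) for the last 12 weeks. The aged control library pools 6 C57BL/6J mice of the same age that were given EPA-deprived feed over the same time. The young library pools 3 mice aged 24 weeks whose strain label reads C57BL/7J and whose diet is not given. Each group is thus 1 library with no replicate, so no difference below has an error between mice and none could be tested.

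Haemoglobin carries oxygen in red blood cells as a tetramer of alpha and beta chains, each holding a haem group. Mature mammalian red cells have no nucleus, and the youngest of them, the reticulocytes, still carry globin and Alas2 RNA made in the bone marrow. Muscle fibres hold their oxygen on myoglobin instead, and globin RNA is found in most tissues through the blood in their vessels. Bpgm and Fech also work outside the red cell lineage: haem is needed in every mitochondrion.

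Values are counts per 1000000 (CPM) as deposited, and recovered totals lay between 55969822 and 57622886 counts per library. A gene entered the comparisons if its average over all libraries reached 1 CPM, which 12966 genes did, among them 7 of the 8 genes here. Slc4a1 did not reach that level. By change is meant the log2 of the ratio between 2 libraries after adding 1 CPM. The count ratio divides each recovered count by the total of its library, and its 95% interval covers counting error only. The labelled tissue was checked by its fibre genes, and all 10 were high in every library, led by skeletal actin Acta1 at 35589 CPM in aged EPA, 36148 CPM in aged control and 31001 CPM in young.

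All 4 adult globins were lower in both aged libraries than in the young one. Together they stood at 559 CPM in aged EPA, 555 CPM in aged control and 1495 CPM in young. They took 0.0566% of the counts in aged EPA, 0.0547% in aged control and 0.149% in young. The summed count was 38.0% of the young level in aged EPA (log2 count ratio -1.39, 95% counting interval -1.43 to -1.36) and 36.7% in aged control (-1.45, -1.48 to -1.42). Both comparisons use the same young library, so they are not independent of each other. In bulk tissue, fewer red cells and less globin RNA per red cell cannot be told apart.

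In aged EPA against young, 4 of the 7 compared genes, the adult globins, lay at least 2-fold below, as did 0.802% of all compared genes, and 0 lay 2-fold above, beside 0.802% of all. In aged control against young it was again the 4 globins that lay 2-fold below, beside 0.841% of all genes, and 0 lay 2-fold above, beside 0.895%. Between aged EPA and aged control, 0 of the 7 were 2-fold lower (0.640% of all genes) and 0 were 2-fold higher (0.694%). By any amount, 6 of the 7 were lower and 1 higher in aged EPA against young, where 56.7% of all compared genes were lower and 43.3% higher. The counts were again 6 lower and 1 higher in aged control against young, beside 52.4% and 47.5% of all genes. In aged EPA against aged control, 3 of the 7 were lower and 4 higher, beside 55.8% and 44.2% of all genes. The median change of the 7 was -1.33 in aged EPA against young, beside -0.04 over all compared genes. It was -1.40 in aged control against young, beside -0.01, and 0.03 in aged EPA against aged control, beside -0.03.

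**Figure D1:**
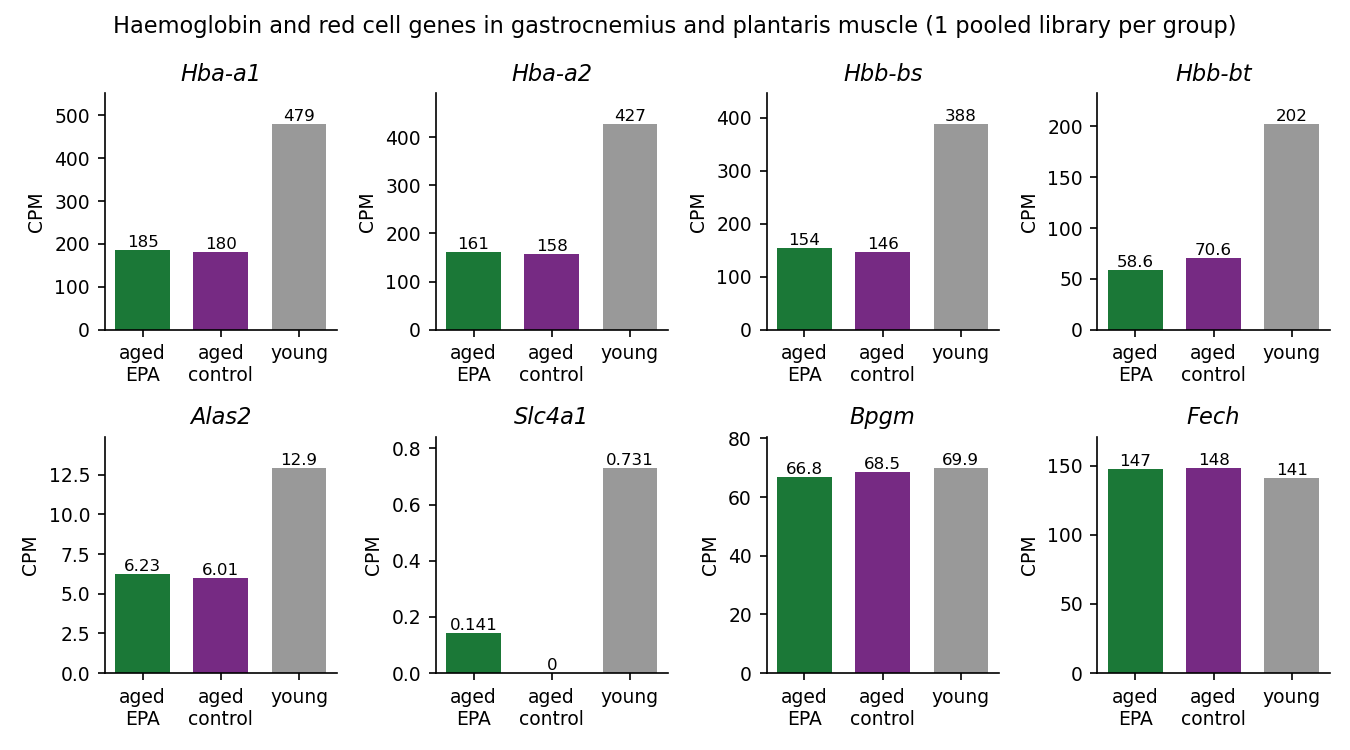
Deposited CPM of the 8 genes, with 1 bar per library (aged EPA, aged control, young) and an axis from 0 in each panel. The 4 globins, Alas2 and Slc4a1 are highest in young, while Bpgm and Fech stand at like levels in all 3 libraries.

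The alpha globin genes are near-identical copies on chromosome 11 (GRCm38, GENCODE M21). Hba-a1 (ENSMUSG00000069919, 32283511 to 32284465) and Hba-a2 (ENSMUSG00000069917, 32296489 to 32297298) lie on the plus strand, and their coding sequences are identical at 425 of 426 aligned positions. Of the 50-base words in the Hba-a2 transcript, 86.9% also occur in Hba-a1, so how reads were split between the copies is uncertain.

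Hba-a1 had 185 CPM in aged EPA, 180.0 CPM in aged control and 479 CPM in young. Hba-a2 had 161 CPM in aged EPA, 158 CPM in aged control and 427 CPM in young. Both genes were high in the young library alone, with the aged libraries close together. For Hba-a1 the change was -1.37 in aged EPA against young and -1.41 in aged control against young, and for Hba-a2 it was -1.40 and -1.43. Among the 12966 compared genes, ordered from the most negative change in aged control against young, Hba-a2 was number 58 and Hba-a1 number 59. The sum of both copies, which does not depend on the split, was 38.9% of young in aged EPA (log2 count ratio -1.36, interval -1.40 to -1.33) and 36.3% in aged control (-1.46, -1.50 to -1.42).

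The beta globin genes lie on the minus strand of chromosome 7. Hbb-bs (ENSMUSG00000052305, 103826534 to 103828096) and Hbb-bt (ENSMUSG00000073940, 103812524 to 103813996) have coding sequences identical at 440 of 441 aligned positions. Of their 50-base words, 65.8% of those in Hbb-bs also occur in Hbb-bt, so the split between these genes is uncertain too.

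Hbb-bs had 154 CPM in aged EPA, 146 CPM in aged control and 388 CPM in young. Its change was -1.33 in aged EPA against young and -1.40 in aged control against young. Hbb-bt had 58.6 CPM in aged EPA, 70.6 CPM in aged control and 202 CPM in young. Young was again the one high library, but here aged EPA was lower than aged control. The change of Hbb-bt was -1.77 in aged EPA against young and -1.50 in aged control against young, the most negative of the 4 globins in each comparison. The sum of the beta globins was 36.8% of young in aged EPA (log2 count ratio -1.44, interval -1.49 to -1.39) and 37.3% in aged control (-1.42, -1.47 to -1.38).

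The promoters of these genes were read from RefSeq (GRCm38.p6), because the globins and Alas2 were low in the same libraries. Windows of 300 bases, 250 before and 50 after the start site, were found for 6 of the 8 genes, and those of Slc4a1 and Fech are not used here. They are shown for Hba-a1 (chr11:32283422-32283721, plus strand), Hbb-bs (chr7:103827879-103828178, minus strand), Hbb-bt (chr7:103813874-103814173, minus strand) and Alas2 (chrX:150547167-150547466, plus strand), which were lower in the aged libraries, and for Bpgm (chr6:34476106-34476405, plus strand), which stood at a like level. Each is written 5′ to 3′ on the strand of its gene. Capitals mark the searched motifs on either strand: the GATA motif (the word AGATAA, the word TGATAA, the word AGATAG or the word TGATAG), the CACCC box (the word CCACCC or the longer word CACACCC), the CCAAT box (CCAAT) and the TATA box (TATAA).
Hba-a1: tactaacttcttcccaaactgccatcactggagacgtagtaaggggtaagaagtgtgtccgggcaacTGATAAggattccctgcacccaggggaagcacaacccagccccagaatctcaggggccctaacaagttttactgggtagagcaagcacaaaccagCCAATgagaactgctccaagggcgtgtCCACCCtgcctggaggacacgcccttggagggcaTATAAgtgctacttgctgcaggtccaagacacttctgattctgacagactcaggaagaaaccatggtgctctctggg
Hbb-bs: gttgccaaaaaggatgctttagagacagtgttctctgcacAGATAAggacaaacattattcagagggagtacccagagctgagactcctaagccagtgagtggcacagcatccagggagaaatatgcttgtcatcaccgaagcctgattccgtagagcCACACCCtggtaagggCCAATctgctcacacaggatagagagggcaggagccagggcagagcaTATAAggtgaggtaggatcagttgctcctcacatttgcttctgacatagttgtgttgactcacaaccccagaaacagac
Hbb-bt: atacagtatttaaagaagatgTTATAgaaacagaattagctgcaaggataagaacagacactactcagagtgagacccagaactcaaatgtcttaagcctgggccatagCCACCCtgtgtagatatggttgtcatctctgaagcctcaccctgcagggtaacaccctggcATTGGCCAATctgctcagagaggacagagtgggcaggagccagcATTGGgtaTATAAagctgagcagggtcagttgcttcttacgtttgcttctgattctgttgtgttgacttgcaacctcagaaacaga
Alas2: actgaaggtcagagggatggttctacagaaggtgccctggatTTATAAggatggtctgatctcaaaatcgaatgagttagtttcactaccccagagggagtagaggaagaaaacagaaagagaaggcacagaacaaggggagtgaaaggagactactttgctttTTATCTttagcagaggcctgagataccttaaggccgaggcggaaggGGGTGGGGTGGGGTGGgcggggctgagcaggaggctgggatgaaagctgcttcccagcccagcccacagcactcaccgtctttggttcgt
Bpgm: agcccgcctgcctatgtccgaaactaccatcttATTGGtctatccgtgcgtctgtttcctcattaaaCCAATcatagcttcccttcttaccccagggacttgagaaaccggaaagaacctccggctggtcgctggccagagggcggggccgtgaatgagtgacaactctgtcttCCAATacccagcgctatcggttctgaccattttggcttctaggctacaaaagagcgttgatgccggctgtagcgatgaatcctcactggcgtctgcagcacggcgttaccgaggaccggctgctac

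The Hba-a2 window equals that of Hba-a1 over all 297 bases that they share after a shift of 3 bases. Hba-a1 and Hbb-bs each hold all 4 motifs, as does Hba-a2, and 0.954% of the 32817 promoter windows in the table do. In Hba-a1 the GATA motif begins 183 bases, the CCAAT box 88 bases, the CACCC box 61 bases and the TATA box 27 bases upstream of the start site. In Hbb-bs these distances are 210 bases for GATA, 76 for CCAAT, 92 for CACCC and 29 for TATA. Hbb-bt holds the CACCC box, the CCAAT box at 3 places and the TATA box at 2, but none of the 4 GATA words. Its window and that of Hbb-bs are identical at 71.3% of aligned positions, far less alike than their coding sequences.

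Alas2 holds a GATA motif that begins 86 bases upstream, on the opposite strand, and 3 CACCC boxes that overlap by single bases between 40 and 30 bases upstream. It has no CCAAT box, and its TATAA words, on both strands, lie 208 and 207 bases upstream and overlap. Bpgm holds the CCAAT box at 3 places and none of the other 3 motifs. Taken alone the motifs are common, with GATA in 29.8% of all windows, CACCC in 36.5%, CCAAT in 37.4% and TATA in 24.9%. The motifs were chosen after the sequences were seen, and a match shows no binding.

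**Figure D2:**
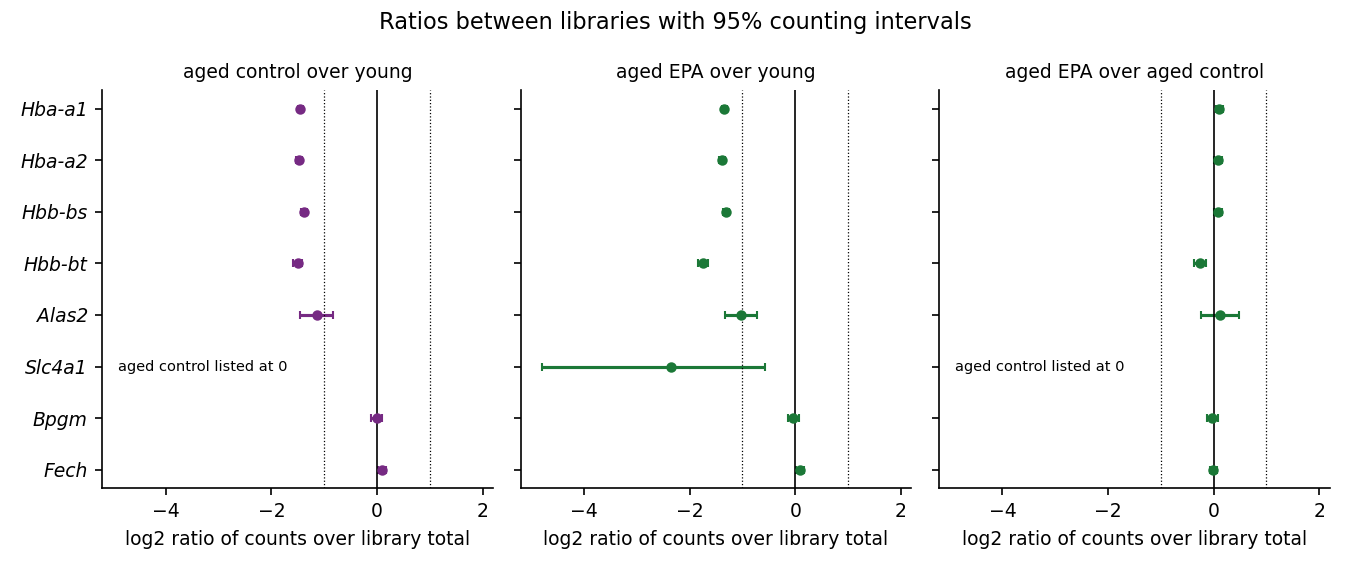
Log2 ratio of recovered counts over library totals for the 8 genes in the 3 comparisons (aged control over young, aged EPA over young, aged EPA over aged control). Bars are 95% counting intervals and dotted lines mark 2-fold. The 4 globins lie left of the lower 2-fold line in both comparisons with young, and Bpgm and Fech lie at or near 0.

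Alas2 encodes the erythroid aminolevulinate synthase, the enzyme of the first step of haem synthesis in developing red cells (ENSMUSG00000025270, chromosome X, 150547375 to 150570638, plus strand). It had 6.23 CPM in aged EPA, 6.01 CPM in aged control and 12.9 CPM in young. The aged libraries were alike and young was high, as for the globins. The change was -0.95 in aged EPA against young and -0.99 in aged control against young, just short of 2-fold. Without the added 1 CPM, the count ratio was past 2-fold, at 49.2% of young in aged EPA (log2 -1.02, interval -1.34 to -0.73) and 45.3% in aged control (log2 -1.14, interval -1.46 to -0.84). Both intervals hold the 2-fold value. Of the 2403 exonic bases of Alas2, 311 overlap exons of Apex2 on the opposite strand, and whether the counts use strand is not given in the sources used here.

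Set against the globins, Alas2 gave 11.3 counts per 1000 globin counts in aged EPA, 10.8 in aged control and 8.73 in young. The 95% counting intervals were 9.44 to 13.4 in aged EPA, 8.96 to 12.8 in aged control and 7.74 to 9.83 in young. The intervals of the aged libraries overlap that of young, but such overlap does not show that the levels are equal. In aged EPA against young, the interval of the Alas2 log2 count ratio (-1.34 to -0.73) lay narrowly above that of the globin sum (-1.43 to -1.36). With the trend of change over exon length subtracted, the change of the globin sum went from -1.42 to -1.26. That of Alas2 went only from -0.95 to -0.91. Whether the intervals stay apart without this trend was not tested. In aged control against young, the Alas2 interval (-1.46 to -0.84) overlapped that of the globin sum (-1.48 to -1.42).

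Slc4a1 encodes band 3, the anion exchanger of the red cell membrane (ENSMUSG00000006574, chromosome 11, 102348824 to 102366203, minus strand). It was read at 0.141 CPM in aged EPA (8 counts), listed at 0 in aged control, and read at 0.731 CPM in young (42 counts). Only the young library lay above the floor of 8 counts, which stands for 3 sequenced fragments and comes to between 0.139 and 0.143 CPM. The level in aged EPA was 19.5% of young, with a wide interval (log2 count ratio -2.36, interval -4.80 to -0.57). With aged control set at the floor of 8 counts, its level would be 5.27-fold lower than in young. That figure leaves out counting error, so it is not a lower bound. Between the aged libraries no ratio is given, since neither is above the floor.

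Bpgm makes bisphosphoglycerate, which lowers the oxygen affinity of haemoglobin (ENSMUSG00000038871, chromosome 6, 34476207 to 34505613, plus strand). It had 66.8 CPM in aged EPA, 68.5 CPM in aged control and 69.9 CPM in young. The log2 count ratio was -0.03 in aged EPA against young (interval -0.14 to 0.07) and -0.01 in aged control against young (interval -0.11 to 0.10). The globin values lie far outside these intervals.

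Fech encodes ferrochelatase, which puts iron into the porphyrin ring in the last step of haem synthesis (ENSMUSG00000024588, chromosome 18, 64452914 to 64490251, minus strand). It had 147 CPM in aged EPA, 148 CPM in aged control and 141 CPM in young. It was slightly higher in the aged libraries, with a log2 count ratio of 0.09 in aged EPA against young (interval 0.01 to 0.16) and 0.09 in aged control against young (interval 0.02 to 0.17). With the trend of change over exon length subtracted, its change was 0.08 in aged EPA and -0.02 in aged control against young, so the direction in aged control is not settled. Of its 50-base words, 5.12% also occur in transcripts of other genes.

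Levels of different genes are compared per kilobase of annotated exon. On that scale the young library gave 639 CPM per kb for Hba-a2, 590 for Hba-a1, 505 for Hbb-bs and 287 for Hbb-bt. Bpgm followed at 19.5 CPM per kb, Fech at 10.2, Alas2 at 5.38 and Slc4a1 at 0.149. In aged EPA the order of these levels was the same, with 242 CPM per kb for Hba-a2, 228 for Hba-a1, 201 for Hbb-bs and 83.4 for Hbb-bt. It was also the same in aged control, with 237, 222, 190 and 100.4 CPM per kb for these genes in the same order. The neighbours Hba-a2 and Hba-a1 share reads, so their order is uncertain.

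**Figure D3:**
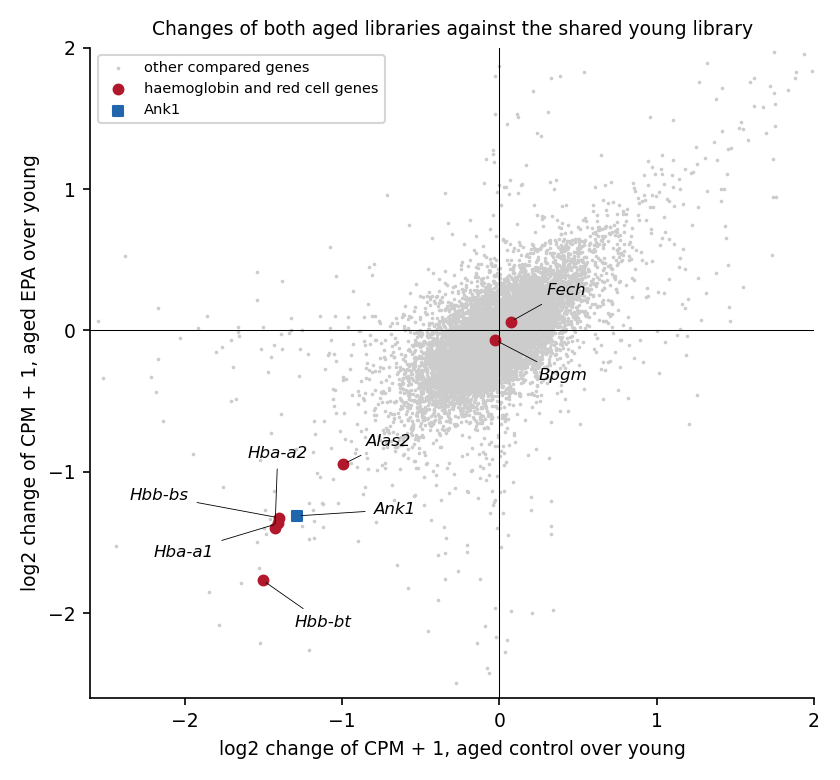
Change of each compared gene (log2 ratio of CPM + 1) in aged control over young, across, and in aged EPA over young, upward. Grey points are other genes (43 more lie outside the plotted range), red points are the 7 compared red cell genes and the square is Ank1. The globins lie apart from most genes between -1.50 and -1.40 across and between -1.77 and -1.33 upward. The young library enters both axes, which by itself draws points towards the diagonal.

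Setting the aged EPA library against the aged control one asks whether the diet went with a difference in these genes in old muscle. The globin sum was nearly level, at 103.6% of aged control in aged EPA (log2 count ratio 0.05, interval 0.01 to 0.09). Hba-a1 (107.8%), Hba-a2 (106.0%) and Hbb-bs (105.8%) were slightly higher in aged EPA by count ratio. On the deposited CPM + 1 scale their changes were smaller, at 0.04, 0.03 and 0.07. With the trend over exon length subtracted they were 0.0013, -0.01 and 0.04, so the direction for Hba-a1 and Hba-a2 is not settled. Hbb-bt was lower, at 83.7% (log2 count ratio -0.26, interval -0.37 to -0.15). The split of reads between Hbb-bs and Hbb-bt is uncertain, however. Their sum, which does not depend on the split, was at 98.6% (log2 count ratio -0.02, interval -0.08 to 0.04). Alas2 was at 108.7%, with an interval from -0.24 to 0.48 around a log2 count ratio of 0.12. Bpgm was at 98.2% and Fech at 99.7%. The spread between mice is unknown here, so differences of this size cannot be set against it.

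The split of counts within the beta globins differed between libraries beyond counting error. Hbb-bs made up 72.3% of beta globin counts in aged EPA (exact Clopper-Pearson interval 71.0% to 73.6%), 67.4% in aged control (66.0% to 68.7%) and 65.7% in young (64.9% to 66.5%). The share in aged EPA lay above the intervals of both other libraries, while those of aged control and young overlapped. Among alpha globin counts, Hba-a1 made up 53.8% in aged EPA (52.7% to 55.0%), 53.4% in aged control (52.3% to 54.6%) and 53.0% in young (52.3% to 53.7%), and all these intervals overlapped. Alpha chains took 62.3% of the 4 globins' counts in aged EPA (61.4% to 63.2%), 60.4% in aged control (59.5% to 61.3%) and 61.0% in young (60.5% to 61.5%). The beta genes share most of their coding sequence, and the part of shared reads in the Hbb-bs share was not tested.

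**Figure D4:**
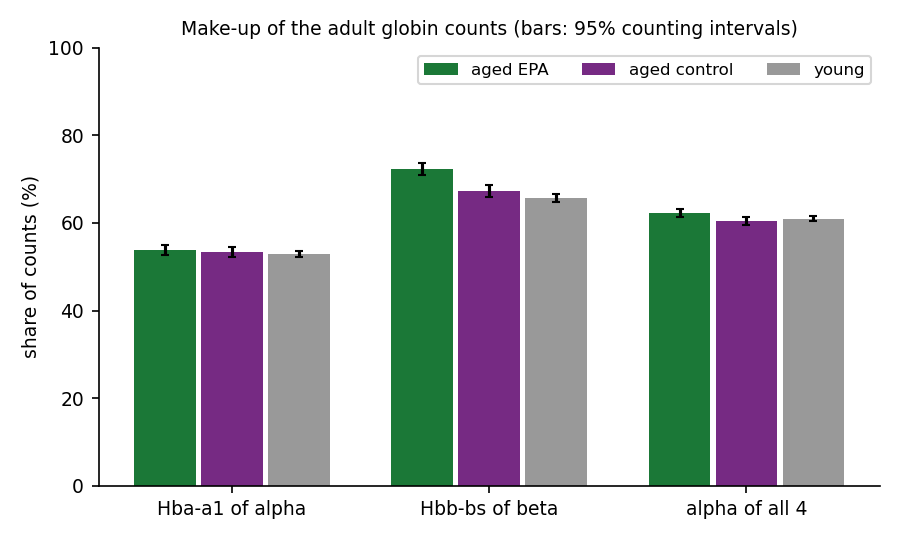
Share of alpha globin counts from Hba-a1, of beta globin counts from Hbb-bs, and of all 4 globins' counts from alpha chains, in percent, for each library. Bars carry 95% counting intervals. The Hbb-bs share is 72.3% in aged EPA, above 67.4% in aged control and 65.7% in young.

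Other globins were listed at 0 or stood at like levels. The embryonic and other minor chains Hba-x, Hbb-y, Hbb-bh0, Hbb-bh1, Hbb-bh2, Hbb-bh3, Hbq1a and Hbq1b were at 0 in all 3 libraries. Mb, the myoglobin of muscle fibres, had 2573 CPM in aged EPA, 2811 CPM in aged control and 2714 CPM in young. Cytoglobin, Cygb, had 31.7 CPM in aged EPA, 27.3 CPM in aged control and 25.8 CPM in young. Neither had a change past 0.29 in size in any comparison.

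Of 25 further genes of the red cell membrane and cytosol in the tables, 11 were compared. In aged EPA against young, 3 were higher and 8 lower, where 56.7% of all compared genes were lower, with 2 at least 2-fold lower (0.802% of all genes) and a median of -0.10 beside -0.04. In aged control against young, 6 were higher and 5 lower, where 52.4% of all genes were lower. Of the 11 genes, 1 was at least 2-fold higher (0.895% of all genes) and 1 at least 2-fold lower (0.841%), and the median was 0.04 beside -0.01. Ank1, the ankyrin that ties band 3 to the red cell skeleton, had 121.7 CPM in aged EPA, 124 CPM in aged control and 304 CPM in young (changes of -1.31 and -1.29 against young). Muscle fibres make a small ankyrin of the sarcoplasmic reticulum from the same gene, and the tables do not tell the transcripts apart. Cd59a, a complement inhibitor of cell surfaces, was low in aged EPA alone, at 9.55 CPM against 23.7 CPM in aged control and 30.4 CPM in young. Epb41, the skeleton protein band that links spectrin to actin, had 52.4 CPM in aged EPA, 122.7 CPM in aged control and 49.8 CPM in young, and so was high in aged control alone. In aged EPA against aged control, 1 of the 11 genes was higher and 10 were lower, where 55.8% of all genes were lower, with Cd59a and Epb41 2-fold lower and a median of -0.08, beside -0.03 over all compared genes.

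Other abundant members of that list lay nearer to 0. The water channel gene Aqp1, which capillary endothelium also expresses, had 406 CPM in aged EPA, 419 CPM in aged control and 570.1 CPM in young. Beta spectrin, Sptb, had 235 CPM in aged EPA, 247 CPM in aged control and 197 CPM in young. Tropomodulin, Tmod1, had 322 CPM in aged EPA, 340.3 CPM in aged control and 291 CPM in young. Sptb and Tmod1 also serve muscle fibres. Of the genes closest to the red cell lineage, Rhag, Rhd, Add2, Tspo2, Pklr and Trim58 were at 0 in all 3 libraries.

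Haem synthesis genes other than Alas2 and Fech showed no change past 2-fold on the scale of CPM + 1 in any of the 3 comparisons. All 16 were compared, and 11 were lower and 5 higher in each aged library against young, with medians of -0.11 in aged EPA and -0.05 in aged control. Of all compared genes, 56.7% were lower in aged EPA and 52.4% in aged control, with medians of -0.04 and -0.01. Only 0.640% to 0.895% of all compared genes were at least 2-fold apart per direction and comparison. Alas1, the form of the first enzyme used by all cells, had 106.1 CPM in aged EPA, 109.9 CPM in aged control and 112 CPM in young. Its change of -0.08 in aged EPA and -0.03 in aged control against young stands beside -0.95 and -0.99 for Alas2. Slc25a39, a carrier of the inner mitochondrial membrane, had 27.7 CPM in aged EPA, 26.6 CPM in aged control and 37.1 CPM in young. Clpx, whose protein works in mitochondria, had 52.7 CPM in aged EPA, 48.0 CPM in aged control and 53.6 CPM in young, and was also within 2-fold. Flvcr1, a haem exporter named after its values were seen, had 9.03 CPM in aged EPA, 18.5 CPM in aged control and 11.2 CPM in young. Its change of -0.96 in aged EPA against aged control was the list's largest in size, and its count ratio, without the added 1 CPM, was past 2-fold (log2 -1.02, interval -1.28 to -0.77).

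Erythroid regulators were mostly too low to compare. Of 11 genes, 4 reached the level needed. Tfrc, the transferrin receptor that brings iron into cells, had 64.5 CPM in aged EPA, 67.6 CPM in aged control and 88.5 CPM in young. Lmo2, a partner of GATA factors that endothelium also expresses, had 3.68 CPM in aged EPA, 7.03 CPM in aged control and 2.89 CPM in young, with a change of 1.05 in aged control against young. Zfpm1 and Tal1 had changes of 0.45 or less in size. The master factors Gata1 and Klf1 had 6 and 0 counts in aged EPA, 0 and 3 in aged control, and 3 and 8 in young, at or under the floor of 8 counts. Epor, the erythropoietin receptor gene, had 26 counts in aged EPA, 27 in aged control and 66 in young, while Nfe2, a factor of red cell and platelet precursors, had 8 in aged EPA, 16 in aged control and 0 in young. Both were named after their values were seen, and they differ in direction.

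Genes that clear haemoglobin and store iron had 12 compared members, with 5 higher and 7 lower in each aged library against young and medians of -0.11 in aged EPA and -0.16 in aged control. The share of lower genes was thus near that over all compared genes, 56.7% in aged EPA and 52.4% in aged control. The ferritin heavy chain gene Fth1 had 1373 CPM in aged EPA, 1325 CPM in aged control and 1592 CPM in young. Ftl1, the light chain, had 160.5 CPM in aged EPA, 159 CPM in aged control and 191 CPM in young. Lrp1, a receptor for haem bound to haemopexin, had 145 CPM in aged EPA, 139 CPM in aged control and 127 CPM in young. Slc48a1, a haem transporter, had 70.2 CPM in aged EPA, 66.2 CPM in aged control and 68.9 CPM in young. Named after their values were seen, haptoglobin (Hp), which binds free haemoglobin, had 17.0 CPM in aged EPA, 14.5 CPM in aged control and 29.7 CPM in young, while its receptor Cd163 had 36.7 CPM in aged EPA, 35.8 CPM in aged control and 26.8 CPM in young.

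Markers of other blood cells were low in all libraries and mixed in direction. Platelet markers summed to 20.9 CPM in aged EPA, 22.1 CPM in aged control and 22.8 CPM in young. On the scale of CPM + 1, 0 of 6 compared genes were 2-fold apart in any comparison. That is near the share over all compared genes, which was 0.640% to 0.895% per direction and comparison. Pf4, the platelet factor that tissue macrophages also express, had 12.9 CPM in aged EPA, 13.3 CPM in aged control and 14.0 CPM in young. Ppbp, a chemokine gene of platelets named after its values were seen, was lower in the aged libraries, with 32 counts in aged EPA, 56 in aged control and 87 in young. The platelet markers Gp1ba and Itgb3 were instead higher in the aged libraries. Their counts were 119 and 115 in aged EPA, 99 and 145 in aged control, and 89 and 104 in young. Gp1bb had 115 counts in aged EPA, 122 in aged control and 133 in young. Neutrophil markers summed to only 4.02 CPM in aged EPA, 3.27 CPM in aged control and 2.62 CPM in young, with Ngp, Camp, Mpo and Ly6g at 0. Lcn2, which other cells also make, had 73 counts in aged EPA, 74 in aged control and 99 in young. S100a9, a calcium-binding protein gene of neutrophils, had 79 counts in aged EPA, 39 in aged control and 19 in young, and so was highest where the globins were low. Lymphocyte markers summed to 1.41 CPM in aged EPA, 1.23 CPM in aged control and 2.24 CPM in young, with Cd3d at 0, and 0 of the 12 genes reached the level needed for comparison. The B cell receptor genes Cd79a and Cd79b were highest in young, with 8 counts each in aged EPA, 19 and 8 in aged control, and 31 and 29 in young. The T cell genes were mixed in direction. Cd4, which macrophages can also express, and Cd3e, named after its values were seen, were lowest in young. They had 28 and 12 counts in aged EPA, 19 and 9 in aged control, and 16 and 0 in young. Trbc2 and Trac were instead highest in young. Their counts were 5 and 0 in aged EPA, 4 and 0 in aged control, and 10 and 4 in young. Cd3g had 6 counts in aged EPA, 11 in aged control and 11 in young. Cd8a had 3 in aged EPA, 0 in aged control and 3 in young.

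Endothelial markers, which line the vessels that hold red cells, were lower with the globins but by less. All 12 were lower in aged EPA than in young and 10 of 12 were lower in aged control than in young, with medians of -0.35 in aged EPA and -0.29 in aged control. Over all compared genes 56.7% were lower in aged EPA and 52.4% in aged control, with medians of -0.04 and -0.01. The endothelial markers summed to 558 CPM in aged EPA, 609 CPM in aged control and 727 CPM in young. Cdh5, the endothelial cadherin, had 93.2 CPM in aged EPA, 99.2 CPM in aged control and 128 CPM in young. The tight junction gene Cldn5, named after its values were seen, was the single one of the 12 past 2-fold. It had 13.0 CPM in aged EPA, 9.22 CPM in aged control and 24.1 CPM in young. Its change was -1.29 in aged control against young, where 0.841% of all compared genes were at least 2-fold lower. Macrophage markers went the other way, with 9 of 10 higher in aged EPA and 8 of 10 higher in aged control against young, beside 43.3% and 47.5% of all genes, and Marco at 0. Fibre markers had medians of 0.19 in each aged library against young. The part of these cell types and of the other blood cells in the globin difference was not tested.

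Transcript length also went with the change. Among 292 compared genes with 600 to 900 nt of exon, the class that holds the globins, the median change was -0.16 in aged EPA and -0.19 in aged control against young. With the trend over length classes subtracted, the change of the globin sum was -1.26 in aged EPA and -1.24 in aged control against young.

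**Figure D5:**
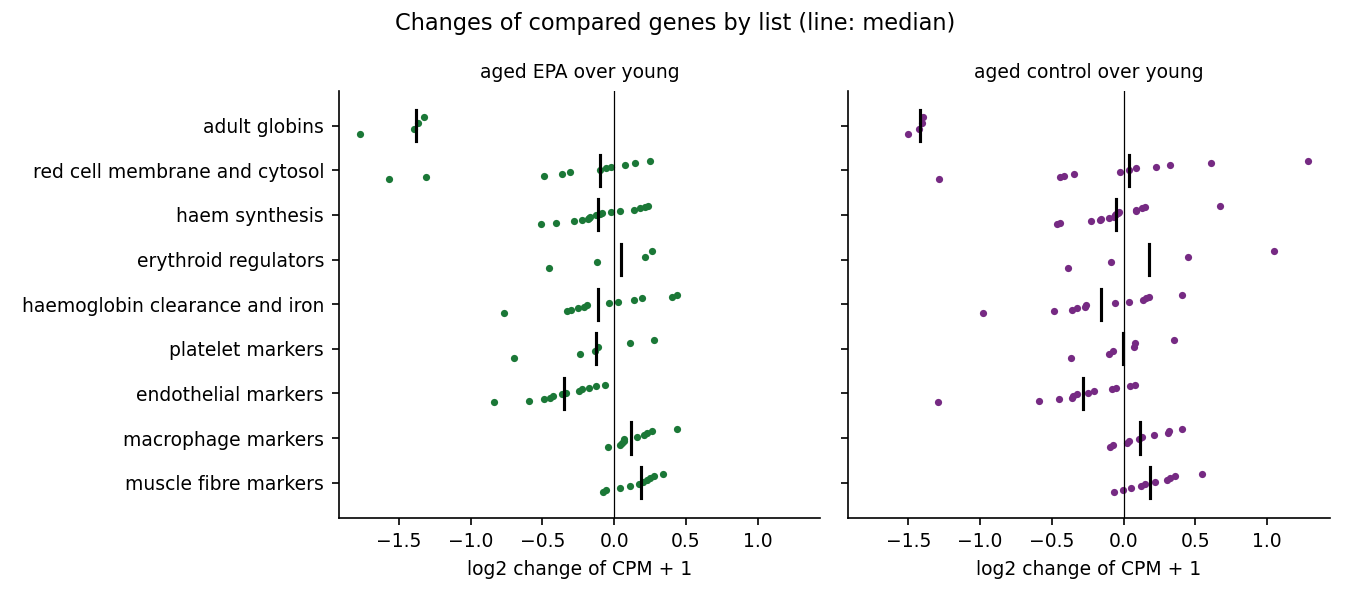
Change of each compared gene (log2 ratio of CPM + 1) by list, in aged EPA over young (left) and aged control over young (right). Points are genes and lines are medians. The adult globins, at medians of -1.38 and -1.42, lie below the medians of all other lists shown.

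The genes whose pattern over the 3 libraries was nearest to the globin sum were sought among 9652 genes averaging 5 CPM or more, by the distance between their pairs of changes against young. The 8 genes themselves were left out of this search. Jmjd8 was nearest, with a distance of 0.06 and 5.25 CPM in aged EPA, 5.07 CPM in aged control and 16.0 CPM in young. The transcription factor gene Tcf4 came next (0.07), at 25.1 CPM in aged EPA, 23.4 CPM in aged control and 67.8 CPM in young. Mtss2 (0.14) had 24.9 CPM in aged EPA, 24.0 CPM in aged control and 71.9 CPM in young, and Ank1 (0.18) was the fourth. The others, at distances of 0.26 to 0.36, were Mid1, Ro60, Gm15361, Mt2, Drp2 and Abi3. On the same measure, Hba-a2 lay at 0.02, Hba-a1 at 0.06, Hbb-bs at 0.10 and Hbb-bt at 0.36 from the sum that they form, while Alas2 lay at 0.64, Slc4a1 at 1.04, Bpgm at 1.95 and Fech at 2.11. With only 3 libraries, such likeness rests on 3 values per gene.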

How the data were processed

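RNA of 3 to 6 mice per group was pooled into 1 library per group. The deposited values are CPM per gene, calculated by the authors, and HISAT2 2.1.0, StringTie 1.3.4d, R 3.5.0 and build GRCm38 are named per the submitters' processing notes. The sum of the deposited CPM lay between 988188 and 1011788, since the divisor differed from gene to gene. All values became whole counts with 1 of 5 divisors (tolerance 1e-06), which moved no log2 change by more than 0.08. Small counts piled up at 3, 6, 8, 11 and 14, spaced 2.67 apart, so intervals (95%, exact Clopper-Pearson) were calculated on counts divided by 2.67. They cover counting error only, neither mice nor preparations. Low counts of 1 and 2 also occur, so that spacing is approximate.

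CPM of rows with a repeated symbol were summed. A pseudocount of 1 CPM, a mean of at least 1 CPM and 2-fold were used. No test was possible with 1 library per group. The genes, lists and motifs were chosen with earlier results of these data known. Apart from all 8 genes, the text names up to 4 most abundant genes per list, those 2-fold apart in the red cell, haem, regulator and globin lists, and the 10 nearest patterns; some genes under this rule are not reported here. Positions and exon lengths are from GENCODE M21. Recovery and fold changes were checked on simulated data without the 2.67 spacing, so the intervals on divided counts were not checked. Python 3.11.15, pandas 2.3.3, scipy 1.17.1 and Biopython 1.88 were used.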

Additional observations from a re-analysis of the deposited data

How the results depend on the processing

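The count of genes at least 2-fold lower in an aged library than in young stayed at 4 or became 5 under all alternatives. It was 5 in aged EPA against young with a pseudocount of 0.1 or 1.5-fold. In aged control against young it was 5 with either of these, with recovered counts divided by library totals, and with scaling that ignores the mitochondrial genome and the top 20 genes. The fifth gene was Alas2. The count between aged EPA and aged control was 0 under all alternatives run, 1.5-fold included. The change of the summed globins kept its direction against young under all alternatives. In aged EPA against young it was -1.42 as reported, -1.38 with median-of-ratios scaling (-1.38 with the trimmed mean of log ratios), -1.38 as the median of the 4 genes and -1.26 with the length trend subtracted. In aged control against young it was -1.43 as reported and -1.24 with the length trend subtracted. In aged EPA against aged control it was 0.01 as reported, 0.0514 with recovered counts divided by library totals and -0.0285 with the length trend subtracted, so its sign is not settled. The length trend was added after seeing the data. No paired analysis was possible because each group has 1 library. Depth limits Slc4a1, Gata1 and Klf1, which lie near or under the floor of 8 counts.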

Other observations

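At least 2-fold lower than young in both aged libraries were 34 of the compared genes, the 4 adult globins and Ank1 among them. Nek7, a kinase gene named after its values were seen, was another, and had 39.9 CPM in aged EPA, 40.03 CPM in aged control and 147 CPM in young. The metallothionein gene Mt2, among the 10 genes with a pattern nearest to the globins, had 16.1 CPM in aged EPA, 19.6 CPM in aged control and 43.8 CPM in young.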
